A study of Homo sapiens with 2 samples.

Results

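The genes described here encode antioxidant and detoxification enzymes that are placed under the transcription factor NRF2: the thioredoxin genes TXN, TXNRD1 and SRXN1, the glutathione genes GSR, GPX2 and GPX4, and HMOX1, OSGIN1 and UGDH. They were chosen by symbol, as the 9 members of a fixed list, from the 14884 genes that the array's annotation names. Below, a gene on the array is one of these named genes, and a listed gene that is not may still have an unnamed probe set. All 9 were found, each read by 1 probe set, and all 9 lay above the level limit used below. Expression had been measured on 2 Affymetrix whole-transcript arrays in A549, an established human lung adenocarcinoma cell line. One array, labelled siCONTROL, read cells that had received a control siRNA, and the other, labelled siP62, read cells that had received the siRNA to p62/SQSTM1. The sequence of neither siRNA was used here. Both cultures were grown under standard conditions and their total RNA was taken at 24 hours. With 1 array per group there was no replicate, no test between the groups and no p-value, and the siRNA and any other difference between the 2 cultures or hybridisations cannot be told apart.

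NRF2 is held down by KEAP1, which presents it to a cullin ubiquitin ligase, and p62 binds KEAP1 and draws it into autophagy. Freed NRF2 pairs with small MAF proteins at antioxidant response elements and drives genes for thioredoxin, glutathione and NADPH metabolism, heme breakdown and conjugation. A549 cells are known to carry a loss-of-function mutation in KEAP1, so that NRF2 is active in them without stress, which limits the line as a model of regulation by KEAP1. Thioredoxin and glutathione are the main carriers of reducing power to oxidised proteins and peroxides, and TXNRD1 and GSR recharge them with NADPH. Placing GPX4 under NRF2 is less settled than for the others, and it is best known as the enzyme that holds back ferroptosis.

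The core of the antioxidant response element, TGACNNNGC, and the related AP-1 site, TGACTCA, were looked for on both strands of the promoter windows of 7 members in the RefSeq promoter table (GRCh38.p14), from 250 bases before to 50 after each annotated start. HMOX1 and GSR were not among them. TGACNNNGC was found for 2 of the 7, TXNRD1 and GPX2, against 16.1% of the 27305 genes in the table. Of the other listed NRF2 target genes, 29 were in the table, and 12 of these (41.4%) had it. TGACTCA was found for 1 of the 7, OSGIN1, against 6.05% of all genes in the table and 3 of those 29 (10.3%). No match of one motif overlapped a match of the other in these windows. The windows with a match are shown because TXNRD1 and GPX2, both with the core, are set against each other below. Each runs 5′ to 3′ on the gene's strand from 250 bases before the start to the start itself, and capitals mark the match. The first TXNRD1 window lies at chr12:104215529-104215779 (+), the second, at a downstream start, at chr12:104286782-104287032 (+), the GPX2 window at chr14:64942745-64942995 (-) and the OSGIN1 window at chr16:83952990-83953240 (+).
TXNRD1, first start: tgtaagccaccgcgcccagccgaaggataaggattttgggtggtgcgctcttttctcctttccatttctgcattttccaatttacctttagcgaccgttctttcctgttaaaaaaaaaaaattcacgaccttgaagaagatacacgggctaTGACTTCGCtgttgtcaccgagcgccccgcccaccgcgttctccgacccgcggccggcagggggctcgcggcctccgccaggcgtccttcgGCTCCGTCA
TXNRD1, second start: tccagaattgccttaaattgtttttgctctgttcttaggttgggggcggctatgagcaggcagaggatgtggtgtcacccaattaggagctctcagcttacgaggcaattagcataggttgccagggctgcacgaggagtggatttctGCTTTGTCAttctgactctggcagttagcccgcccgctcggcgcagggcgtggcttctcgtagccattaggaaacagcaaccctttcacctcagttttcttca
GPX2: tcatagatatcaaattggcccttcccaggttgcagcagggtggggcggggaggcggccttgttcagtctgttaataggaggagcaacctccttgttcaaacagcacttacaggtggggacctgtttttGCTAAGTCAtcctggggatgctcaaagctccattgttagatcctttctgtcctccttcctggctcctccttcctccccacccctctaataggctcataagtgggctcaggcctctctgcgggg
OSGIN1: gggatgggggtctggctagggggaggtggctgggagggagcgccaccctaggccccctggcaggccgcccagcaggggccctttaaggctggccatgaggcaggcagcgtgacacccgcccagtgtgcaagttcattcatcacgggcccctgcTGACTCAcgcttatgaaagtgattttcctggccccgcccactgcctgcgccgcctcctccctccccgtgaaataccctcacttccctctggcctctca
The first TXNRD1 window holds TGACTTCGC, 99 to 91 bases before the start, and a further match on the opposite strand that ends on the start base. The second holds TGACAAAGC on the opposite strand, 102 to 94 bases before the start. The match of GPX2 reads TGACTTAGC on the opposite strand, 122 to 114 bases before the start, and that of OSGIN1 lies 97 to 91 bases before it. A match is a run of letters and is not shown to be a site that NRF2 binds, and the lack of one says only that these letters are not in the window.

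The comparison of the arrays asked whether these genes differed when SQSTM1 was silenced. Values are RMA values on the log2 scale, and a difference is the siP62 value minus the siCONTROL value. The siRNA's target, SQSTM1, was at 8.64 with siCONTROL and 7.30 with siP62. Of the 9 members, 8 were lower in the siP62 array and 1, TXN, was 0.02 higher; of all genes above the level limit, 41.8% were lower and 55.4% higher. The median difference of the members was -0.19, which corresponds to 87.7% of the control level, whereas the median of the 7896 genes above the limit was 0.04. That limit, 5.35, is the median of all named values and had to be reached in at least 1 array. At least 1.2-fold lower were 4 of the 9 members, HMOX1, TXNRD1, GSR and GPX4, and 10.5% of all genes. None of the 9 was 1.5-fold lower, as were 1.60% of all genes, and none was 1.2-fold higher, as were 16.0%. The members were listed with earlier results of these arrays known, so these counts describe them and are not independent evidence of a direction. In RNA from bulk cells, fewer cells with a transcript and less of it per cell cannot be told apart.

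**Figure D1:**
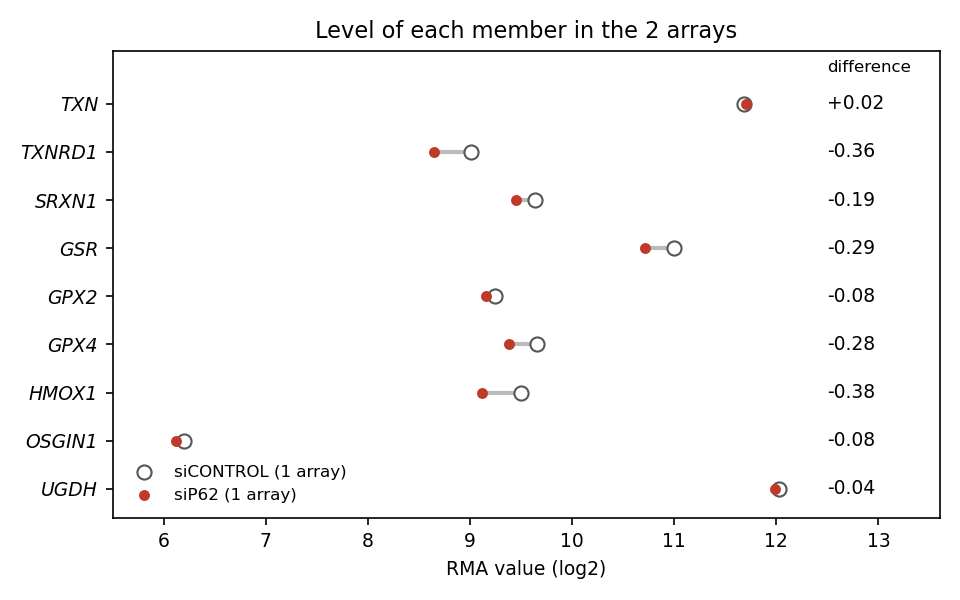
Value of each member in the siCONTROL array (open circles) and the siP62 array (filled circles), on the log2 scale, with the difference at the right. The circles lie furthest apart for HMOX1 (-0.38) and TXNRD1 (-0.36) and nearly coincide for TXN (0.02) and UGDH (-0.04); levels are not comparable between genes, which different probes read.

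To show how large these differences were for 2 single arrays, each was set beside the genes of like level. The 7896 genes were put into 20 bins by their mean level, and a robust SD, the median absolute deviation scaled to match an SD, was taken of the differences in each bin. It measures how far genes of like level scatter and is no replicate error. It ran from 0.15 to 0.25 in the bins of the 9 members. More than 1 robust SD below the median of their bin were 5 members, against 16.5% of all genes, and more than 2 robust SDs below it were 3 members, HMOX1, GSR and TXNRD1, against 4.33% of all genes. The other 4, GPX2, OSGIN1, UGDH and TXN, lay within 1 robust SD of the median.

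**Figure D2:**
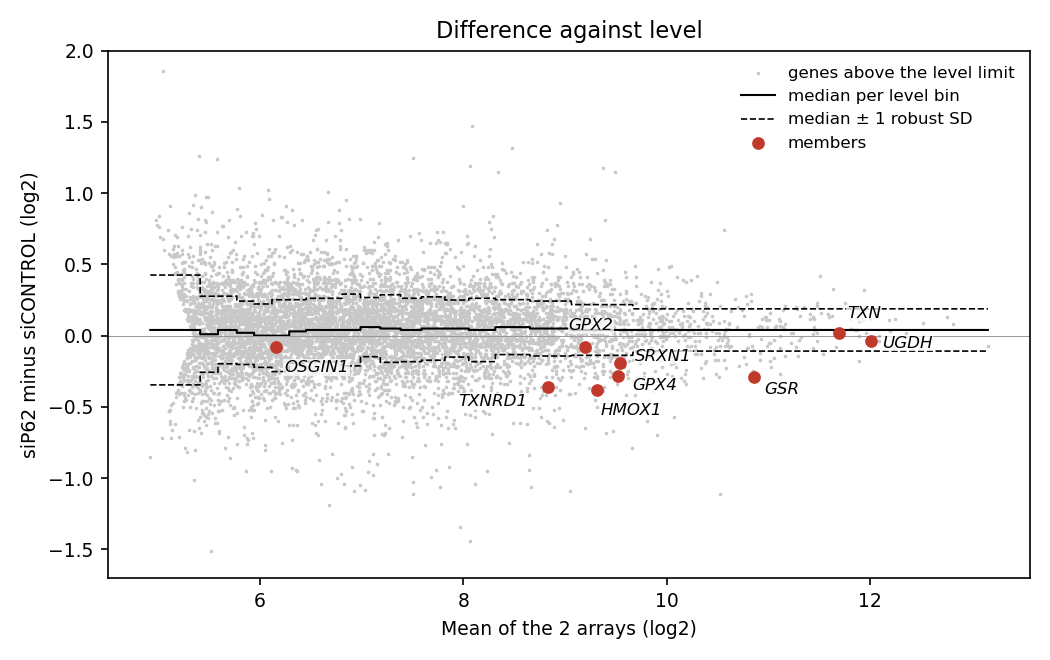
Difference between the arrays (siP62 minus siCONTROL, log2) against the mean of both arrays (log2) for the 7896 genes above the level limit (grey) and the 9 members (red), with the median (line) and 1 robust SD on either side (dashed) in each of 20 level bins. HMOX1, TXNRD1, GSR, GPX4 and SRXN1 lie below the lower dashed line, and TXN, UGDH, GPX2 and OSGIN1 lie between the dashed lines.

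Of the thioredoxin genes, the reductase TXNRD1 lay more than 2 robust SDs below genes of like level, SRXN1 more than 1, and TXN less than 1. TXNRD1, the cytosolic thioredoxin reductase and a selenoprotein, had a value of 9.01 with siCONTROL and 8.65 with siP62. This is a 1.28-fold lower level, and 21 of the other 394 genes in its bin had a lower difference. SRXN1, sulfiredoxin, which repairs overoxidised peroxiredoxins, had values of 9.64 and 9.45, a difference of -0.19 with 43 of 394 genes lower. TXN, thioredoxin itself, had 11.68 and 11.70, so the siP62 array was the higher for it as deposited. Its sign turned, to -0.02, once the median difference of all genes was subtracted. It was the only member whose sign depended on the scaling.

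The other genes of the thioredoxin system went both ways. Of 30 genes listed, 28 were named on the array and 23 above the limit, with 8 lower, 15 higher and a median difference of 0.03. Without the 3 members, 6 of 20 were below 0 and 9 of 20 below the median of all genes, and their own median was 0.07. The paralogs of TXNRD1, named here after their values were seen, had -0.11 for TXNRD3 and 0.14 for TXNRD2, the mitochondrial reductase. Besides TXNRD1, the lowest differences in the list were those of GLRX5 (-0.32), a mitochondrial glutaredoxin of iron-sulfur cluster assembly, and MSRB1 (-0.29), a selenoprotein that reduces oxidised methionine. The highest were those of MSRB3 (0.59), another methionine sulfoxide reductase, GLRX2 (0.39), and SESN2, a stress-induced sestrin, tied with MSRA (0.26). The 4 peroxiredoxin genes above the limit, the substrates of sulfiredoxin or their relatives, differed by 0.01 to 0.16, and all 4 were higher as deposited although 2 of the 4 lay below the median of all genes.

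All 3 glutathione genes among the members were lower in the siP62 array, as were 41.8% of all genes above the level limit. GSR, the reductase that returns oxidised glutathione to its reduced form, had a value of 11.00 with siCONTROL and 10.71 with siP62. Its level was 1.22-fold lower, and 17 of the other 393 genes in its bin had a lower difference. GPX4, the peroxidase that reduces lipid hydroperoxides in membranes, had 9.66 and 9.38, a 1.21-fold lower level with 19 of 394 genes lower. GPX2, the gastrointestinal glutathione peroxidase, had 9.24 and 9.16, a difference of -0.08. For GPX2, 97 of 394 genes in the bin were lower, so its difference was well inside the spread for its level. TXNRD1 and GPX2, the members with a TGACNNNGC core in the windows shown above, thus differed by -0.36 and -0.08. The probe set of GPX2 cites a non-coding transcript of the gene, while those of the other 8 members cite coding ones.

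Elsewhere in glutathione metabolism the differences went both ways. Of 20 genes listed, 13 were named on the array and 12 above the limit. Without the members 4 of 9 were lower, and the median of those 9 was 0.03. HAGH, a glyoxalase that releases glutathione, differed by -0.30, much as GSR and GPX4 did. GPX8, a peroxidase of the endoplasmic reticulum, differed by 0.64, a 1.56-fold higher level, and GLO1, the other glyoxalase, by 0.17. Glutathione synthetase, GSS, was at -0.01. GCLC, GCLM and SLC7A11, which limit glutathione synthesis, were not analysed here.

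HMOX1, the inducible heme oxygenase, which opens heme to biliverdin, carbon monoxide and iron, had the lowest difference of the 9 members. Its value was 9.50 with siCONTROL and 9.12 with siP62, a 1.30-fold lower level, which leaves 76.8% of the control. In its bin, 9 of the other 394 genes had a lower difference. Over all levels, 5.14% of the 7896 genes did.

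The other genes of heme breakdown were lower too, while those of heme synthesis went both ways. HMOX2, the constitutive heme oxygenase, had 6.51 with siCONTROL and differed by -0.51, a 1.42-fold lower level. BLVRA, which reduces biliverdin to bilirubin, had 8.01 and 7.58, a 1.35-fold lower level. BLVRB, named biliverdin reductase B, had 10.56 and 10.39, a difference of -0.17. All 4 breakdown genes thus lay below 0, as did 41.8% of all genes, and their median was -0.41. At least 1.2-fold lower were 3 of the 4, against 10.5% of all genes. Of the 5 synthesis genes above the limit, 2 were lower, ALAD (-0.04) and UROS (-0.02), and 3 higher, CPOX (0.02), UROD (0.28) and FECH (0.28), the ferrochelatase that inserts the iron; CPOX was below the median of all genes, 0.04, so its sign turns when that is subtracted. The heme genes were divided into breakdown and synthesis after their values were seen, so the contrast is a description. FLVCR1, the heme exporter, differed by -0.27. The ferritin genes FTH1 and FTL, often named beside HMOX1 as NRF2 targets, were not analysed here.

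The last pair of members differed little. OSGIN1, a growth inhibitor induced by oxidative stress, had 6.20 with siCONTROL and 6.12 with siP62. Its difference was -0.08, and 132 of the other 394 genes in its bin were lower. Its siCONTROL value was 0.85 above the level limit. UGDH, which makes UDP-glucuronate for glucuronidation and for hyaluronan, had 12.03 and 11.99, a difference of -0.04 with 111 of 393 genes lower. Of the 5 other UDP-glucuronate genes named on the array 4 were lower, against 41.8% of all genes, with a median of -0.13. HAS2, the hyaluronan synthase that uses this sugar, differed by -1.09, from 7.47 to 6.38, whereas HAS3 differed by 0.04 and UGP2, which acts just before UGDH, by -0.01.

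**Figure D3:**
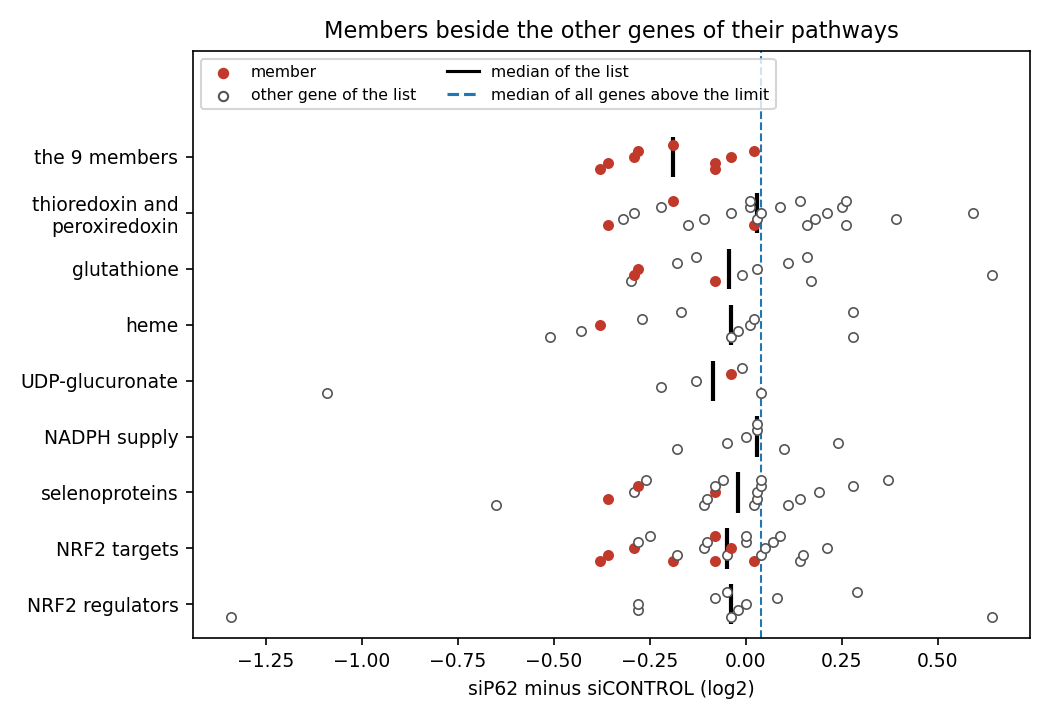
Difference between the arrays (siP62 minus siCONTROL, log2) of the genes above the level limit in each list, members in red and other genes as open circles, with the list's median (black bar) and the median of all genes, 0.04 (dashed line). The median of the 9 members, -0.19, lies to the left of the medians of the 8 pathway lists drawn, which run from -0.09 to 0.03; the lists share genes, and the superoxide and catalase list, with 2 genes above the limit and a median of -0.27, below that of the members, is not drawn.

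Selenoproteins make up 3 of the 9 members, TXNRD1, GPX2 and GPX4, and their mRNAs need a dedicated machinery to insert selenocysteine. Their differences were -0.36, -0.08 and -0.28. SECISBP2, the protein that binds the insertion element of these mRNAs, had 7.60 with siCONTROL and 6.95 with siP62, a 1.57-fold lower level. Selenoprotein and insertion genes that are no members went both ways. Of the 17 above the limit, SECISBP2 included, 7 were lower, against 41.8% of all genes, and their median was 0.03. After SECISBP2, MSRB1 (-0.29) was the lowest of the 17, and SELENOI (0.37) and SELENOH (0.28) were the highest.

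NRF2 target genes that are no members had a median of 0.00. Of 40 listed, 15 were named on the array and above the limit, with 6 lower, 7 higher and 2 equal. Of the 15, 8 lay below the median of all genes. At least 1.2-fold lower was 1 of the 15, KEAP1, against 10.5% of all genes. PTGR1, prostaglandin reductase, differed by -0.25 and the transketolase TKT by -0.18. GSTA4, a glutathione transferase, and CES1, a carboxylesterase, were the highest with 0.21 and 0.15. The gap between the members and these targets was not tested. NQO1, a widely used readout of NRF2, was not analysed here.

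Among the regulators, NFE2L2, which encodes NRF2, had 7.46 and 7.38, a difference of -0.08 with 112 of the other 394 genes in its bin lower. KEAP1 had 8.38 and 8.10, a difference of -0.28. CUL3, the cullin of the KEAP1 ligase, differed by -0.04, the small MAF gene MAFG by 0.00, and NFE2L1, a relative of NRF2, by -0.02. PALB2 (0.64) and DPP3 (0.29), whose proteins can bind KEAP1, were the highest of the 11 regulators above the limit. NFE2L3 differed by -0.28 (from 5.4 to 5.12) and was above the limit through the siCONTROL array alone. It lay less than 1 robust SD below the median of its bin, with 77 of the other 394 genes lower. KEAP1, with the same difference, lay more than 1 robust SD below the median of its bin. GSK3B and BTRC, of the KEAP1-independent route of NRF2 breakdown, differed by -0.05 and 0.08. MAFF lay below the limit. These are mRNA levels; NRF2 is set mainly through its protein, which was not measured.

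The control genes and cell markers gave the scale of differences outside these pathways. GAPDH, TBP, HPRT1, PPIA and B2M differed by -0.08 to 0.20, with a median of 0.13. Of 10 epithelial markers 7 were named on the array and 6 above the limit, among them KRT18 and EPCAM, differing by 0.02 to 0.21. Of the leukocyte markers named on the array 3 of 4 were above the limit, CD68, CD14 and CD8A, with differences of -0.25 to -0.04. Of the fibroblast markers 1 of 2 was, LUM (from 5.02 to 5.49), and of the endothelial markers 1 of 5, CLDN5 (from 4.84 to 5.47), both through the siP62 array alone. DCN, PECAM1 and VWF were below the limit in both arrays. The part of these differences in those of the members was not tested. With siCONTROL, CD14 was at 5.98 and CD8A at 5.79, beside 6.20 for the member OSGIN1. The limit is a median of values, so lying above it does not show that a gene is expressed.

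All differences were also taken after 3 other scalings. The 4 members at least 1.2-fold lower numbered 4 under each of them, and the median of the 9 ran from -0.23 to -0.22. All 9 members were then below 0, while 48.0% to 50.2% of all genes were, and the share of all genes at least 1.2-fold lower was 12.6% to 13.5%, against 10.5% as deposited.

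**Figure D4:**
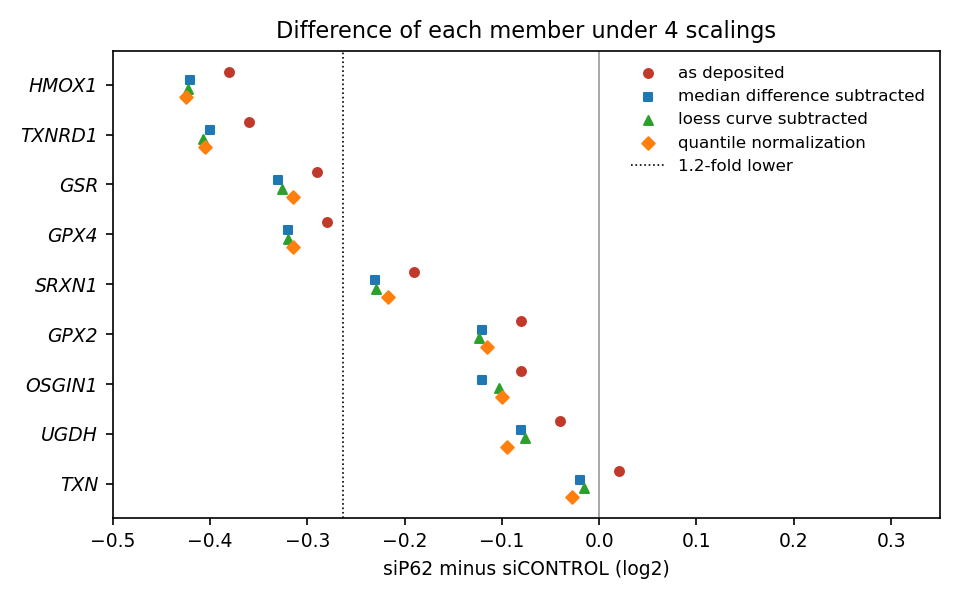
Difference of each member (siP62 minus siCONTROL, log2) as deposited, with the median of all differences or a loess curve taken off, and after quantile normalization. HMOX1, TXNRD1, GSR and GPX4 stay left of the dotted line at 1.2-fold lower under all 4, and TXN changes from 0.02 to values just below 0.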

How the data were processed

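The table the authors deposited holds log2 values of 48226 probe sets in each array, with 2 decimals. The submitters' processing notes name Transcriptome Analysis Console 4.0.2.15 and RMA. As commonly run, RMA makes the distributions of arrays alike, so a shift of all genes would be hidden. The deposited columns were still not identical in distribution, with medians over all probe sets of 4.07 for siCONTROL and 4.02 for siP62. Neither the genome build nor the set of arrays that RMA normalized together is given in the sources used here. RNA was extracted with Trizol and 100 ng was labelled, per the labels' protocols. Detection calls were not used here. Precision is limited by the number of arrays.

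The platform annotation gave 1 symbol for 16098 probe sets, several for 0 and none for 32128, which were unnamed here. Where a gene had several probe sets, that of the highest mean level was used. The members and the 14 other lists were chosen with earlier results of these data known. Named are the members, SQSTM1, the control genes, regulators on the array and up to 3 genes at either end of each list; other genes were picked with their values in view. Simulated data with planted differences and the same noise at all levels were used to test 2 statistics. These were the median difference of the planted genes and the robust SD over all genes. Bin ranks, list counts and scalings were not tested in this way. Python 3.11.15, pandas 2.3.3 and statsmodels 0.14.6 (loess, span 0.3) were used. Alternatives were the scalings, the mean over probe sets and other level limits.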

Additional observations from a re-analysis of the deposited data

How the results depend on the processing

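The direction of the members' median and the count of 4 members at least 1.2-fold lower held under all 6 alternatives. Other level limits leave a member's difference as it is, and the 3 scalings moved all 9 members down, so this is a weak check. All 83 recomputed values moved by less than the robust SD over genes, 0.22, or, for counts and shares, by less than 1.5 times. That tolerance of 0.22 is larger than the size of the members' median as deposited, -0.19. The median ran from -0.24 to -0.19. TXN changed sign under 3 alternatives, which raised the count of lower members from 8 to 9. With the limit at the 70th percentile OSGIN1 was left out, and 7 of 8 members were lower. The mean over probe sets changed no member, since each has 1. No paired analysis was possible because each group has 1 array. Without replicates, no member's difference, HMOX1 included, can be told from 0.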

Other observations

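Genes that serve the same chemistry without belonging to the thioredoxin, glutathione or heme pathways were also looked at, after the comparisons above and without a test. CAT, catalase, which breaks down hydrogen peroxide in peroxisomes, had 8.51 with siCONTROL and 8.01 with siP62, a 1.41-fold lower level, and 10 of 394 genes of like level were lower still. CCS, the copper chaperone of superoxide dismutase, differed by -0.04.

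Of 14 genes listed for NADPH supply, 7 were named on the array, all above the limit, so the list was covered only in part. The median difference of these 7 was 0.03, beside 0.04 for all genes above the limit. Whether the NADPH supply of TXNRD1 or GSR differed was not tested. TKT (-0.18) and PGD (-0.05), of the pentose phosphate pathway, were lower, TALDO1, of the same pathway, was equal in both arrays, and PGLS, also of that pathway, was higher by 0.24. The antisense neighbour of UGDH, UGDH-AS1, had 4.24 and 4.44, both below the level limit.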
